A study of Homo sapiens with 6 samples.

Results

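The kinesin motor family was followed in A549, a human lung adenocarcinoma cell line, after siRNA against the ribosomal protein gene RPS19. Its members were taken by symbol, KIF with a number and at most 1 letter or KIFC1 to KIFC3, on chromosomes 1 to 22 and X of the authors' hg19 gene table. The rule found 42 kinesin genes among 63152 genes counted: 14 mitotic kinesins, 17 transport kinesins and 11 of other or mixed roles. Of these, 39 had enough reads to be tested. The study gave 3 cultures an siRNA pool against RPS19 (siRPS19) and 3 a non-targeting control siRNA (siOTP), both at 10 nM, and took total RNA at 72 hours; the labels call the 3 libraries of each group biological replicates. The targeting pool and the control came from different product lines (siGENOME and ON-TARGETplus), so target and reagent cannot be told apart.

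Kinesins are motor proteins that use ATP to walk along microtubules or to shorten their ends. Mitotic kinesins build the spindle, move and align chromosomes and complete cytokinesis, and many of their genes are known to be transcribed mainly in G2 and M phase. Transport kinesins carry vesicles, organelles, mRNA and ciliary cargo in cells that divide and in cells that do not. The comparison asks whether the 2 arms of the family differ after RPS19 siRNA. These libraries measure mRNA and not protein, and in bulk RNA fewer cells of a kind and less RNA per cell cannot be told apart.

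The libraries held 20814110 to 23889372 counts on genes, and RPS19 itself was 35.3-fold lower in siRPS19 (41.7 against 1472 CPM; CPM, library-size-scaled counts, here scaled by TMM, edgeR's normalisation for library composition). All 5 epithelial markers examined reached 1 CPM, as did 1 of 4 fibroblast markers (COL1A1) and 1 of 4 leukocyte markers (CD14), whereas the 2 endothelial ones did not. Of the 4 lung alveolar markers none reached 1 CPM and NKX2-1 and SFTPA1 were at 0 in every library. Epithelial markers summed to 1760 to 2233 CPM in siOTP and 1124 to 1266 CPM in siRPS19, fibroblast markers to 32.3 to 40.0 and 14.6 to 20.4 CPM, and leukocyte markers to 1.49 to 2.28 and 1.85 to 2.90 CPM. The first sum is carried by KRT8 and KRT18 and the second by COL1A1, all lower. EPCAM was also lower (1.48-fold), while KRT19 (6.85-fold), CDH1 (1.63-fold) and PDGFRB (3.79-fold, from 11 counts over 3 libraries) rose. The part of these markers in the kinesin results was not tested. Between 3.39% and 3.85% of entries fell outside genes in the siOTP libraries, and between 5.13% and 6.36% in the siRPS19 libraries; their part was not tested either.

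Mitotic kinesin mRNAs, by the roles set here, fell together and by large factors, while transport kinesins split. KIF2A, a depolymerase shared by spindles and neurons, was counted with other roles and fell only 1.12-fold. The 13 tested mitotic kinesins were all lower in siRPS19 at an adjusted p under 0.05 (edgeR's quasi-likelihood test), 11 of them at least 10-fold. Both counts include KIF4B (14.5-fold), which passed the filter on low counts through siOTP alone and so had to differ. Across all 17171 genes tested, 38.9% were called lower and 1.32% were lower by at least 10-fold. The median log2 fold change was -5.24 for the mitotic kinesins against 0.02 for all genes tested. A filter at a mean CPM of at least 1 drops KIF4B and leaves 12, all lower, with a median of -5.48. Of the 17 transport kinesins, 6 were higher, 7 lower and 4 did not pass the test, with a median of -0.09, and 39.5% of all genes were called higher. Scaling by library totals without TMM moves the median of all genes by 0.29 and gives 9 higher and 4 lower transport kinesins, with a median of 0.20; upper-quartile factors give 8 and 6, with a median of 0.08. None of the 17 was lower by 10-fold. KIF5B and KIF1A were the transport kinesins lower by at least 2-fold, a size reached by all 13 mitotic ones and by 12.4% of all genes. Because 78.3% of all genes were called in 1 direction or the other, the mixed calls among transport kinesins are near what the whole table shows. The size of the mitotic falls stands further from it.

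**Figure D1:**
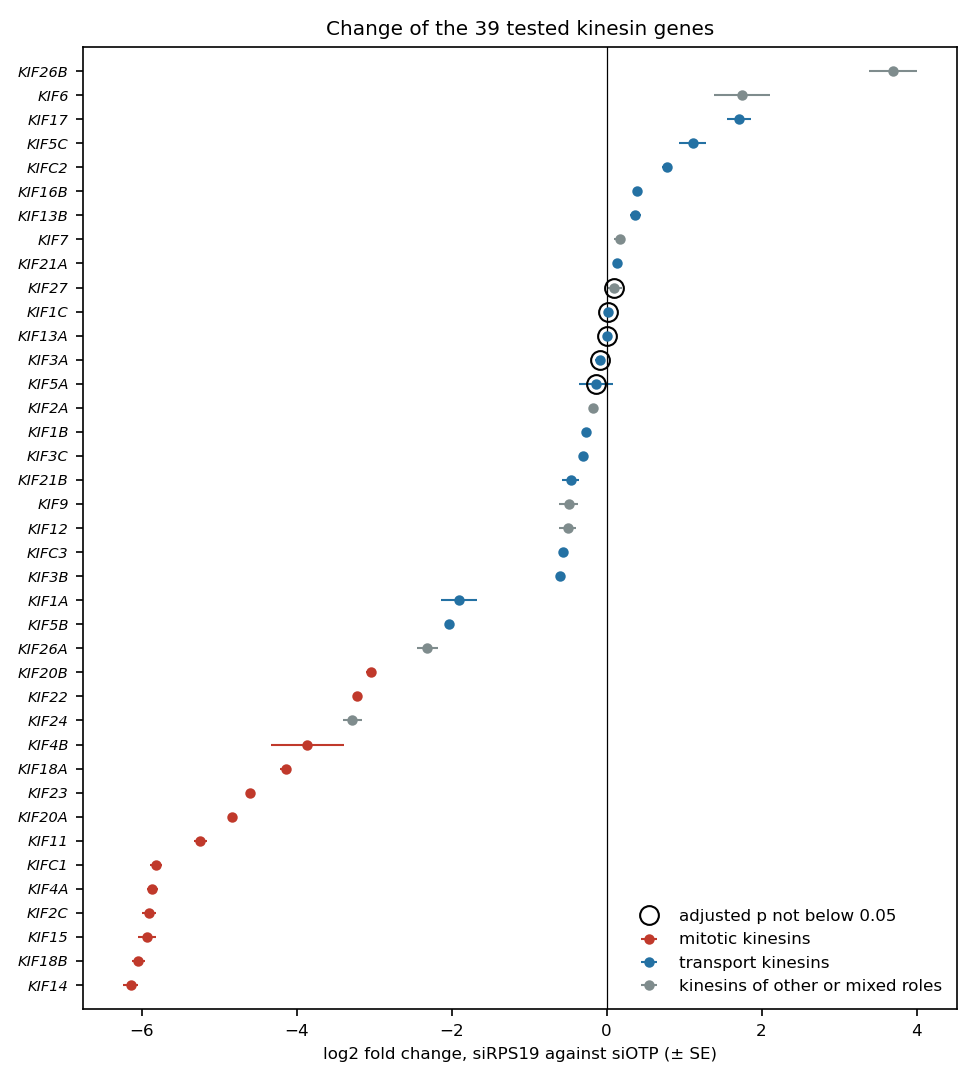
Log2 fold change (x axis, siRPS19 against siOTP, points with SE) of each of the 39 tested kinesin genes, coloured by role. The mitotic kinesins lie between -6.14 and -3.04, the transport kinesins between -2.03 and 1.71.

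The contrast appeared in each pair of same-numbered libraries. The median log2 ratio of the mitotic kinesins was -5.12, -5.62 and -5.00 in pairs 1, 2 and 3. That of the transport kinesins was -0.08, -0.19 and -0.04. The difference between both medians over all libraries was -5.15, and over the pairs it ran from -4.96 to -5.43. siRPS19 replicate 2 had the lowest CPM of its group for 10 of the 13 mitotic kinesins. The groups did not overlap for any of the 13 mitotic kinesins, for 13 of 17 transport kinesins and for 79.7% of all genes. For KIF4B, among the mitotic ones, this follows from a filter passed through siOTP alone.

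Motors of the spindle itself stood among the strongest falls. KIF11 (ENSG00000138160, chromosome 10, 94353043 to 94415150, hg19), the kinesin-5 that slides antiparallel microtubules apart to separate the poles, measured 217, 219 and 203 CPM in siOTP and 6.15, 4.38 and 6.25 CPM in siRPS19. Every siRPS19 library was far below every siOTP library, a log2 fold change of -5.24 ± 0.08 (SE), or 37.9-fold lower (adjusted p = 2.63e-18, edgeR). KIF15 (chromosome 3, 44803209 to 44914868), the kinesin-12 that can hold a bipolar spindle when KIF11 is impaired, went from 42.8, 44.5 and 38.2 CPM to 0.808, 0.564 and 0.662 CPM. It was 60.8-fold lower (log2 fold change -5.93 ± 0.12, adjusted p = 6.21e-20), so both motors of spindle bipolarity fell. KIFC1 (chromosome 6, 33359313 to 33377701), a minus-end motor that bundles microtubules and focuses poles, measured 79.7, 76.7 and 84.0 CPM against 1.35, 1.39 and 1.53 CPM and was 56.2-fold lower (adjusted p = 2.50e-22).

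Motors that act on chromosomes and microtubule ends fell as well. KIF18B (ENSG00000186185, chromosome 17, 43002077 to 43025082), which helps to control the length of astral microtubules, had 2.46, 1.56 and 2.15 CPM in siRPS19 after 134 to 140.0 CPM in siOTP. The log2 fold change was -6.04 ± 0.08, a 65.7-fold fall (adjusted p = 6.11e-23). Its partner KIF2C (chromosome 1, 45205490 to 45233439), the depolymerase that corrects wrong kinetochore attachments, measured 88.9, 86.9 and 87.6 CPM against 1.85, 1.17 and 1.32 CPM, a 59.9-fold fall. KIF4A (ENSG00000090889, chromosome X, 69509879 to 69640682), a chromokinesin that also works on the midzone of the late spindle, fell alike. It measured 129.9, 131 and 126 CPM against 2.39, 2.08 and 2.15 CPM, a 58.1-fold fall (log2 fold change -5.86 ± 0.07, adjusted p = 1.15e-23). KIF18A, which damps chromosome movements at the metaphase plate, was 17.6-fold lower (71.3 to 4.03 CPM). KIF22, a chromokinesin that pushes chromosome arms outwards, was 9.33-fold lower, at 151, 151 and 154 CPM against 15.6, 15.6 and 17.6 CPM. With KIF20B it kept the highest share of its siOTP level among the mitotic kinesins.

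Cytokinesis motors covered the whole range of the mitotic falls. KIF14 (ENSG00000118193, chromosome 1, 200520628 to 200589862), which acts in the final cut between daughter cells, fell furthest of all 39 tested kinesins. Its libraries measured 124, 129 and 120.1 CPM in siOTP and 2.19, 1.13 and 1.90 CPM in siRPS19. The log2 fold change was -6.14 ± 0.10, a 70.4-fold fall (adjusted p = 1.28e-19). KIF23, the motor of the centralspindlin complex, was 24.2-fold lower, from 238, 245 and 233 CPM to 10.3, 9.11 and 10.1 CPM. KIF20A, which brings the chromosomal passenger complex to the midzone, was 28.4-fold lower, from 146 to 148 CPM to 4.60 to 5.63 CPM. KIF20B, the third kinesin-6, fell least of the mitotic kinesins, with 104, 106 and 109 CPM against 14.5, 12.4 and 11.7 CPM (8.25-fold, adjusted p = 4.24e-20).

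A pair of mitotic members gave little or no information. KIF4B is an intronless copy of KIF4A and had 25, 19 and 20 counts in siOTP and 3, 2 and 0 in siRPS19, reads that the counting may have shared with its parent. It passed the filter on low counts through siOTP alone, so it had to differ, and without it 12 mitotic kinesins were tested and lower. KIF2B had 0 counts in all 6 libraries, which allows up to 3 counts in each.

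**Figure D2:**
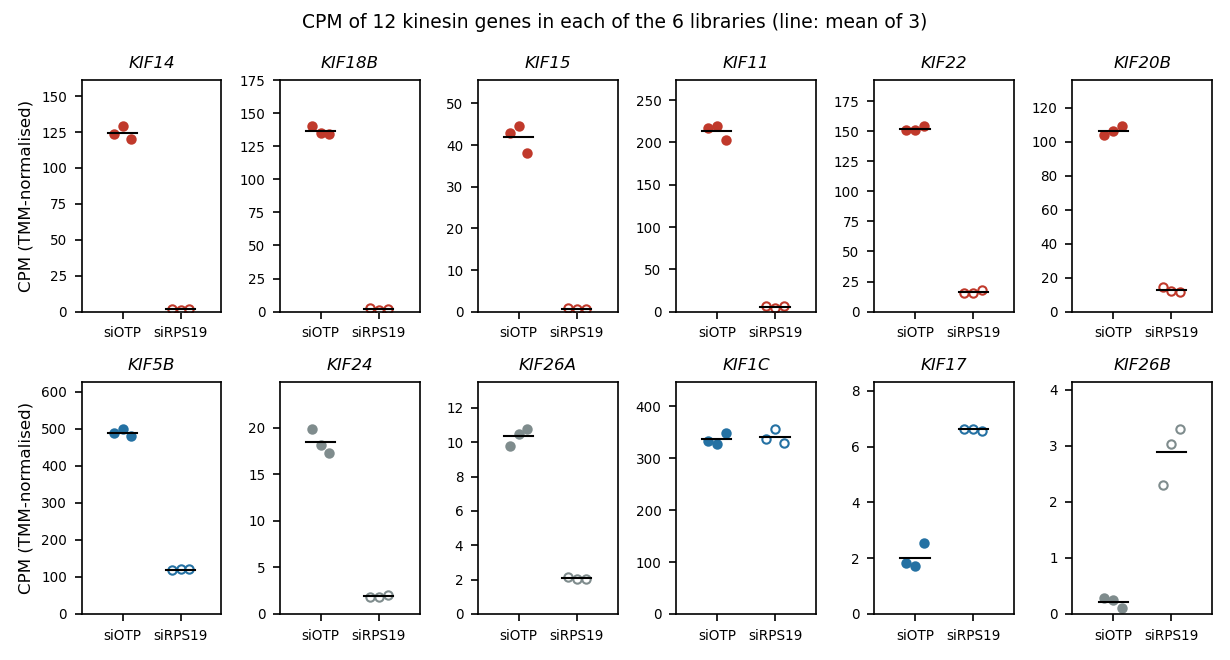
TMM-normalised CPM (y axis, from 0, own scale per gene) of 12 kinesin genes in each of the 6 libraries, filled points for siOTP and open points for siRPS19, with a line at the mean of 3. The groups overlap for KIF1C alone among these 12, and KIF17 and KIF26B are the ones that rose.

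Mitotic genes often carry in their promoters the cell cycle genes homology region, TTTGAA or TTCGAA, to which the DREAM and MuvB complexes bind, with a CCAAT box, the site of NF-Y, upstream of it. The stretches below show where these letters stand, or are missing, in front of some mitotic kinesins that fell strongly and of transport kinesins that fell or rose. They are RefSeq promoter sequence (GRCh38.p14, 5′ to 3′ on the gene's strand), which ends at the base before the transcript start (position -1) and begins at -80, or at -150 for KIF5B. Capitals mark the hexamer or CCAAT on either strand; a CCAAT on the other strand reads ATTGG. The stretches are chrX:70290024-70290103 (+) for KIF4A, chr10:92593050-92593129 (+) for KIF11, chr3:44761714-44761793 (+) for KIF15, chr1:44739757-44739836 (+) for KIF2C, chr10:32056426-32056575 (-) for KIF5B and chr1:20718008-20718087 (-) for KIF17.
KIF4A: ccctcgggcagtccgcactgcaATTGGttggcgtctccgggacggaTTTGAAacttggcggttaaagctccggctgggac
KIF11: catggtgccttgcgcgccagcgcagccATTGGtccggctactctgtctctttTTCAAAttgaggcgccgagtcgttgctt
KIF15: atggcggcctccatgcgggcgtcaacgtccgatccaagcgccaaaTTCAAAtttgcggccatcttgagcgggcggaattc
KIF2C: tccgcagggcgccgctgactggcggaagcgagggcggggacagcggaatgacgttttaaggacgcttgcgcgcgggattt
KIF5B: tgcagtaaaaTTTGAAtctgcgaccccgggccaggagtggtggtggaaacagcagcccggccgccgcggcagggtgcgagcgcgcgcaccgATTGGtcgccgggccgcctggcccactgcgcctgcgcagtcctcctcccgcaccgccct
KIF17: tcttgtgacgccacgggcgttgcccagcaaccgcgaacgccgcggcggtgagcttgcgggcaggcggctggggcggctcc

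KIF4A and KIF11 show the usual order, with CCAAT at -58 and -53 (first base) and the TTTGAA hexamer at -34 and -28. KIF15 holds the hexamer at -35 and no CCAAT in its promoter, and KIF2C, which fell about as far, holds neither. The transport kinesin KIF5B has both, but the hexamer at -140 lies upstream of CCAAT at -59. KIF17, which rose, has neither. Among mitotic kinesins not printed, KIF14, KIF18B and KIFC1 hold the hexamer after the start, at 2, 3 and 5. KIF4B and KIF20B hold it there too, whereas in KIF18A, KIF22 and KIF23 it begins before the start.

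The search covered both strands from 250 bases before the start to 50 bases from it on. It matched 34 of the 42 kinesin genes and was run alike on 34961 promoters of 27195 genes. TTTGAA or TTCGAA stood in a promoter of 11 of 14 mitotic kinesins (78.6%), 1 of 12 matched transport kinesins (8.33%, KIF5B) and 1 of 8 others (12.5%, KIF24), against 19.5% of all genes. CCAAT stood in 11 of 14 mitotic, 4 of 12 transport and 3 of 8 other kinesins, against 39.7% of all genes. Both motifs in 1 promoter were found for 10 of 14 mitotic kinesins (71.4%), for KIF5B and for KIF24, against 7.84% of all genes. Of the mitotic kinesins, KIF2B, KIF2C and KIF20A had no hexamer in this window. These matches describe letters and show no binding.

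Transport kinesins were led by one large fall at a high level. KIF5B (ENSG00000170759, chromosome 10, 32297938 to 32345359, hg19), the conventional kinesin heavy chain made in most cell types, measured 488, 501 and 482 CPM in siOTP and 119, 121 and 120.2 CPM in siRPS19. The siRPS19 libraries lay close together and far under the siOTP ones, with a log2 fold change of -2.03 ± 0.04 (4.09-fold lower, adjusted p = 1.50e-20). Its relatives, which are known mainly from neurons, were at 5.21 CPM or less. KIF5C (chromosome 2, 149632819 to 149883273) went from 1.63, 2.68 and 2.06 CPM up to 4.04, 4.55 and 5.21 CPM, 2.17-fold higher (adjusted p = 9.42e-06). KIF5A measured 2.59, 2.23 and 1.39 CPM against 2.27, 1.73 and 1.66 CPM, overlapped, and did not pass the test (log2 fold change -0.13 ± 0.22, adjusted p = 0.587).

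Within kinesin-2, the motors of ciliary and neuronal transport, members parted. KIF17 (ENSG00000117245, chromosome 1, 20990507 to 21044510), a homodimeric motor of cilia and dendrites, had 1.82, 1.72 and 2.53 CPM in siOTP and 6.65, 6.64 and 6.58 CPM in siRPS19. It was 3.28-fold higher (log2 fold change 1.71 ± 0.15, adjusted p = 2.10e-09), the largest rise of a transport kinesin. Rises of at least 2-fold, seen in KIF17 and KIF5C, made up 18.5% of all genes. KIF3B and KIF3C, which pair with KIF3A, were 1.52-fold and 1.23-fold lower, the call of KIF3C being lost under library totals. KIF3A measured 38.9, 40.7 and 40.8 CPM against 36.9, 35.7 and 40.5 CPM and did not pass (adjusted p = 0.151), but was called higher under library totals (0.20) and lower with no filter (-0.14).

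Kinesin-3 vesicle carriers changed little, apart from a rare one. KIF1A, the carrier of synaptic vesicle precursors, fell 3.74-fold from 2.54, 2.13 and 3.04 CPM to 0.654, 0.651 and 0.745 CPM (adjusted p = 2.01e-07). KIF1B was 1.20-fold lower, a call lost under upper-quartile scaling and under library totals, where its log2 change turns to 0.03. KIF1C, which serves vesicle and mRNA transport, measured 334, 328 and 349 CPM against 336, 357 and 329 CPM, and KIF13A 99.6, 106 and 104 CPM against 104, 106 and 101 CPM. Neither passed the test (log2 fold changes 0.02 ± 0.04 and 0.01 ± 0.04), and their groups overlapped. Both were called higher under library totals (0.30 and 0.29) and under upper-quartile factors (0.19 and 0.18). KIF13B and the endosomal motor KIF16B were 1.29-fold and 1.31-fold higher.

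Minus-end and growth-controlling motors were mixed too. KIFC3, a minus-end motor of epithelial junctions and Golgi, fell 1.48-fold from 330.3, 326 and 353 CPM to 222, 231 and 230.3 CPM. KIFC2 rose 1.72-fold, from 36.7, 39.6 and 37.5 CPM to 68.9, 60.0 and 66.2 CPM (adjusted p = 6.28e-11). KIF21B fell 1.38-fold (adjusted p = 0.000502, not past the threshold under library totals), and its paralog KIF21A was 1.09-fold higher (adjusted p = 0.00774, and no longer past the threshold without siOTP replicate 1, at a log2 fold change of 0.09).

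Of 9 tested kinesins of other or mixed roles, 3 were higher, 5 lower and 1 not past the test. Over all genes tested, 78.3% were called. Among the higher ones, KIF6 and KIF26B passed the filter on low counts in siRPS19 alone and so had to differ. The other, KIF7, lost its call under DESeq2 and when some single libraries were left out. KIF24 (chromosome 9, 34252379 to 34329198), a centriolar depolymerase that holds back cilium growth in cycling cells, measured 19.9, 18.1 and 17.3 CPM in siOTP and 1.85, 1.78 and 2.07 CPM in siRPS19. Its fall of 9.69-fold (log2 fold change -3.28 ± 0.12, adjusted p = 4.91e-16) lies in the range of the mitotic kinesins. KIF2A, the depolymerase shared by spindles and neurons, fell only 1.12-fold (89.2, 89.7 and 87.6 CPM against 81.7, 79.9 and 75.7 CPM), and under library totals without TMM it was called higher (0.12), and under upper-quartile scaling it did not pass (0.01).

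The kinesin-11 pair, motors that bind microtubules but lack normal ATPase activity, went opposite ways. KIF26A (chromosome 14, 104605060 to 104647231) fell from 9.78, 10.5 and 10.8 CPM to 2.15, 2.04 and 2.03 CPM, 4.97-fold (adjusted p = 5.95e-13). KIF26B (ENSG00000162849, chromosome 1, 245318287 to 245872733) rose from 6, 5 and 2 counts to 60, 70 and 80 counts, a log2 fold change of 3.70 ± 0.31 (adjusted p = 1.00e-09). KIF26B overlaps other annotated genes. Like KIF6, it reached the filter in siRPS19 alone and so had to differ.

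The other motors linked to cilia among the kinesins of other or mixed roles showed no common direction. KIF6, a motor of motile cilia, had 5, 11 and 3 counts in siOTP and 23, 26 and 30 in siRPS19 and was higher (adjusted p = 0.000194). KIF9 was 1.40-fold lower and KIF12 1.42-fold lower, both calls lost under library totals. KIF7, which regulates Hedgehog signalling at the cilium tip, was 1.13-fold higher at an adjusted p of 0.0391, a call lost without siOTP replicate 1 or 2 or siRPS19 replicate 1 or 2 (log2 fold changes 0.09, 0.18, 0.15 and 0.17). KIF27, a relative of KIF7, measured 7.82, 7.04 and 7.84 CPM against 8.62, 7.46 and 8.19 CPM and did not pass, but was called higher under library totals (0.38) and upper-quartile factors (0.27). KIF19 held 2, 1 and 0 counts against 9, 4 and 6, too few to test. Outside the cilia motors, the kinesin-14 KIF25 held 6, 3 and 1 counts against 6, 9 and 8, also too few to test.

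Kinesin families group motors by sequence, and several hold both mitotic and transport members. Kinesin-3 ran from -6.14 for KIF14 to 0.39 for KIF16B on the log2 scale, kinesin-4 from -5.86 for KIF4A to 0.17 for KIF7, and kinesin-14 from -5.81 for KIFC1 to 0.78 for KIFC2. Kinesin-6 (KIF20A, KIF20B and KIF23) and kinesin-8 (KIF18A and KIF18B), whose tested members are mitotic, stayed within 1.78 and 1.90 log2 units. In kinesin-13 KIF2C stood at -5.90 and KIF2A at -0.17.

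**Figure D3:**
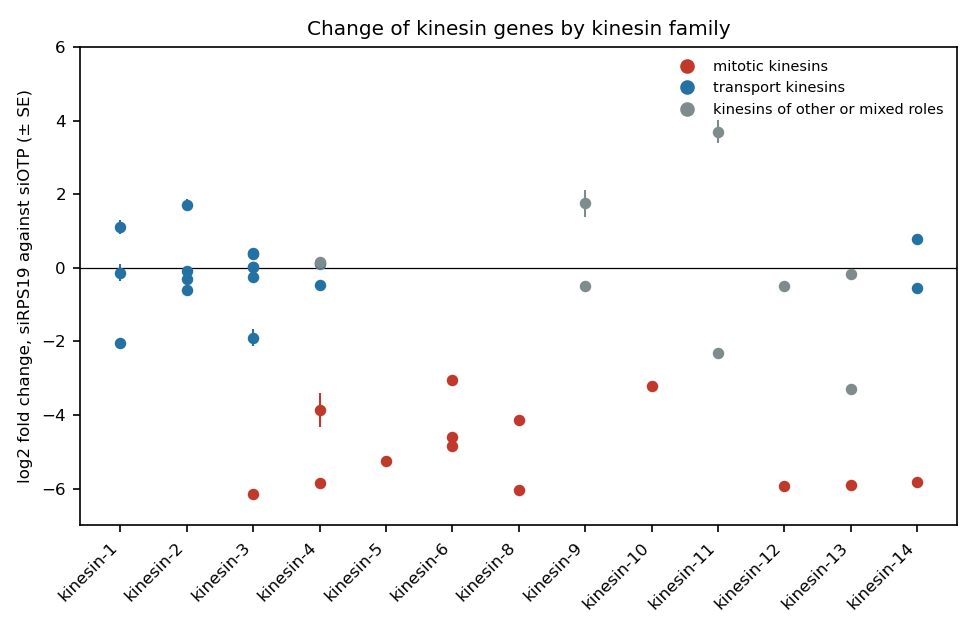
Log2 fold change (y axis, points with SE) of the tested kinesin genes by sequence family (x axis), coloured by role. Families 3, 4, 11 and 14 each span more than 6 log2 units. A mitotic kinesin lies at the bottom of families 3, 4 and 14, while family 11 holds none.

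Levels between genes were compared per kilobase of transcript, as RPKM computed here from the counts on the TMM scale. In siOTP the mitotic kinesins summed to 314 ± 3.59 RPKM (reads scaled by transcript length in kilobases and by library size; SD, n = 3) and the transport kinesins to 258 ± 2.69. In siRPS19 the sums were 12.6 ± 1.00 and 182 ± 0.76, a 25.0-fold and a 1.42-fold drop of these summed levels. The 3 libraries per group did not overlap for either sum, and an exact two-sided permutation test of 3 against 3 cannot go below 0.1. The mitotic share of all kinesin reads per kilobase went from 51.9 ± 0.499% to 5.70 ± 0.445%, and the transport share from 42.7 ± 0.497% to 82.5 ± 0.56%. Both values rest on counting KIF2A with other roles: placed with the mitotic kinesins after the data were seen, it gave a mitotic sum of 332 ± 3.82 against 29.1 ± 1.14, an 11.4-fold drop, and a mitotic share of 55.0% against 13.2%. KIF5B alone dropped by 63.1 of the 76.2 units lost by the transport kinesins. Left out after the data were seen, it gave a remaining sum of 175 ± 3.73 against 162 ± 0.61, a 1.08-fold drop. These sums are on the TMM scale and were not repeated under other scalings. Library totals without TMM move the median of all genes up by 0.29 log2 units, more than this 1.08-fold drop. The direction of the remaining sum and the split with KIF5B therefore hold for the TMM scale only.

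**Figure D4:**
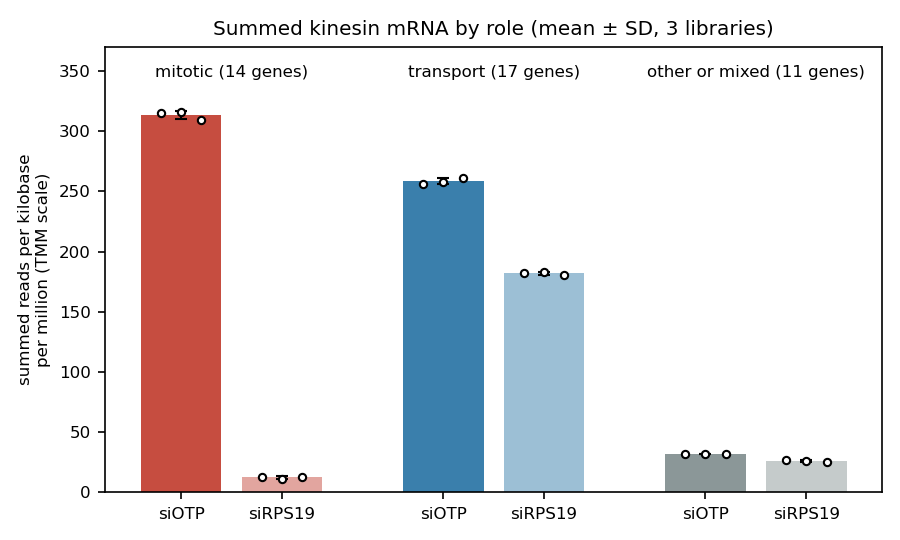
Summed level of the kinesins of each role (y axis, RPKM from 0, bars for the mean and SD of 3 libraries, points for libraries). The mitotic sum goes from 314 in siOTP to 12.6 in siRPS19, the transport sum from 258 to 182.

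The order of the family by level was rebuilt. The 10 highest kinesins held 7 mitotic members in siOTP and none in siRPS19, where 9 were transport kinesins and 1 was KIF2A. KIF5B led in siOTP at 83.5 ± 1.67 RPKM, ahead of KIFC3 (44.6 ± 1.89), KIF11 (43.9 ± 1.86) and KIF1C (39.3 ± 1.29), of which KIFC3 and KIF11 did not differ beyond their spread. In siRPS19 KIF1C led at 39.7 ± 1.71, then KIFC3 at 30.1 ± 0.691 and KIF5B at 20.4 ± 0.221, each apart from the next by more than its SD. KIF11 went from rank 3 to rank 22, at 1.15 ± 0.217.

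**Figure D5:**
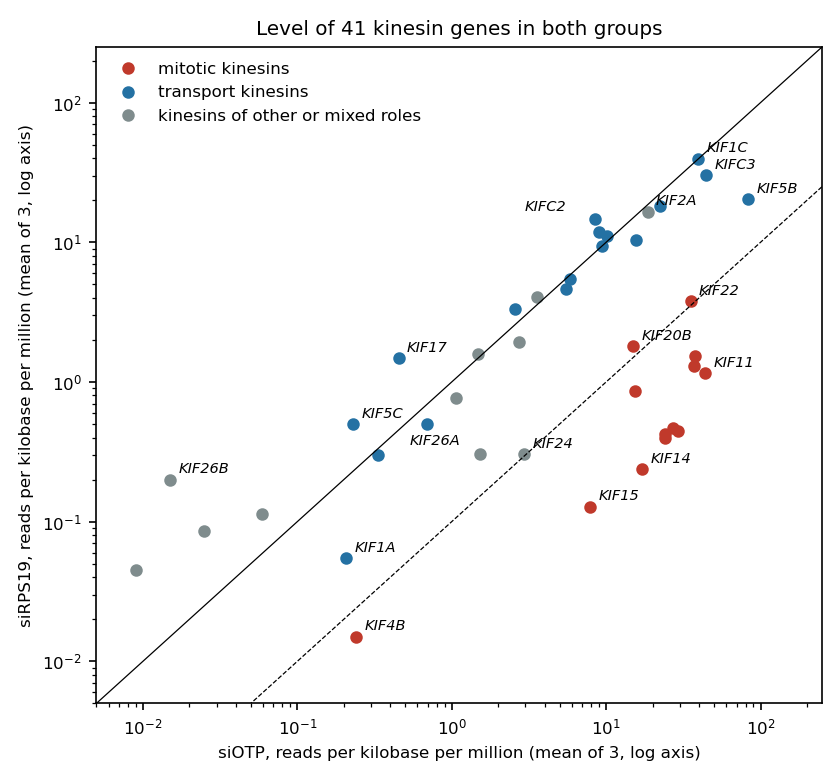
Mean level of 41 kinesin genes (RPKM, log axes) in siOTP (x axis) and siRPS19 (y axis), with a solid line at equality and a dashed line at 10-fold lower. The mitotic kinesins lie near or below the dashed line and most transport kinesins near equality.

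Genes that work with these motors were listed by role. Of 19 partners and regulators of mitotic kinesins, 18 were lower and 1 higher, with a median log2 fold change of -5.28, against 38.9% lower and 39.5% higher over all genes tested. PRC1, which bundles the midzone microtubules on which KIF4A and KIF20A act, fell 45.6-fold. PLK1, a kinase that places several of these motors, fell 53.1-fold, the mitotic kinase CDK1 39.4-fold and the spindle protein NUSAP1 38.9-fold. KIFBP, which binds and inhibits some kinesins, was 1.21-fold lower, and NUMA1, the pole protein that anchors dynein, 1.38-fold higher. CENPE, the kinetochore kinesin-7 whose symbol lies outside the rule, fell 33.1-fold (84.1 ± 0.718 to 2.54 ± 0.26 CPM), and STARD9, a kinesin of pericentriolar material, rose 1.45-fold (13.6 ± 0.447 to 19.8 ± 1.77 CPM).

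The cargo side had calls in both directions. Of 20 kinesin light chains and cargo adaptors 13 were higher, 5 lower and 2 not past the test (median 0.35), where 39.5% of all genes were called higher and 38.9% lower. TRAK1, which couples KIF5 to mitochondria, rose 3.41-fold while KIF5B fell, and its paralog TRAK2 rose 1.68-fold. The light chain KLC4 rose 2.29-fold and the scaffold SPAG9 fell 1.51-fold. The light chain KLC3 had a log2 fold change of 0.60 and did not pass (adjusted p = 0.0686).

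Dynein is the motor that runs the other way. Of 26 genes of cytoplasmic dynein, dynactin and their regulators 24 were tested, of which 8 were higher, 11 lower and 5 not past (median -0.03), and none was lower by 2-fold, where 78.3% of all genes were called and 12.4% were lower by at least 2-fold. The share called is near that of all genes, while changes of at least 2-fold were scarcer. Only 1 gene was higher by at least 2-fold, against 18.5% of all genes. NDE1 and NDEL1, which regulate dynein in mitosis and in nuclear movement, were 1.82-fold and 1.72-fold lower. The dynactin subunit DCTN5 was 1.60-fold and the light chain DYNLL2 1.91-fold higher. DCTN6 and DYNLRB1 did not pass (adjusted p = 0.967 and 0.758).

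Overlapping annotation limits some of these values. Of the 42 kinesin genes, 25 overlap an annotated gene on the other strand in hg19, 8 of them mitotic, and the strand setting of the counting is not given in the sources used here. KIF14, KIF18B, KIF22, KIF20B and KIF5B overlap no other annotated gene, and they fell 70.4-fold, 65.7-fold, 9.33-fold, 8.25-fold and 4.09-fold.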

How the data were processed

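RNA of 6 A549 cultures, 3 per siRNA, was sequenced as read pairs. The submitters' processing notes name hg19 as the build and list TopHat2 (2.0.8b), HTSeq, R (3.0.2) and DESeq; how reads were assigned, by which strand setting and annotation, is not given in the sources used here. For each library the authors deposited whole-number counts per gene, and also a table of RPKM with 1 value per group, which gave symbols, coordinates and transcript lengths and, as RPKM ratio, 1 alternative.

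Entries naming no gene were left out (reads outside genes, above, and ambiguous reads, 8.10% to 8.24% in siOTP and 7.50% to 7.60% in siRPS19). The filterByExpr function of edgeR 4.0.16 (minimum count 10, minimum total 15) left 17171 genes for the robust quasi-likelihood test with TMM factors in R 4.3.3, adjusted by Benjamini-Hochberg over all of them at 0.05. The script was tested on simulated data in which few genes changed, unlike here, so that test does not check the scaling. Standard errors are the log2 fold change divided by the square root of the F statistic.

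The members, roles and lists were chosen with earlier results of these data known, and no list was tested as a set. Named from the lists of interacting genes were the 4 smallest and 2 largest p-values of each, of which 1 gene is not reported here. Same-numbered samples share a date in the labels, which pairs them; their deviations from the group means correlated at 0.055, -0.095 and 0.045. The fit had no block, and a replicate block was an alternative, as were 3 scalings, 2 filters, DESeq2 1.42.0, limma-voom (limma 3.58.1), the roles given to KIF2A, KIF21A and KIF21B, and leaving out each library. No replicate pair agreed within sampling noise (chi-square per degree of freedom 4.40 to 16.6). Promoters are those of RefSeq (GRCh38.p14), and no coordinate was carried between builds.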

Additional observations from a re-analysis of the deposited data

How the results depend on the processing

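All 13 tested mitotic kinesins stayed lower at an adjusted p under 0.05 in every fit that kept them, each library left out in turn included; a mean CPM of at least 1 drops KIF4B. Leaving out 1 library gave a mitotic median log2 fold change of -5.31 to -5.11, a transport median of -0.10 to -0.04 and a difference of -5.28 to -5.05. The mean CPM filter tested fewer genes and left KIF4B out of the mitotic kinesins. It put the mitotic median at -5.48, the transport median at -0.04 and the difference at -5.44. With the replicate block, RLE factors or limma-voom, all 39 calls held (block: 13, 6 and 7 calls for mitotic lower, transport higher and transport lower; medians -5.24 and -0.09, difference -5.15), and the block changed no call of a kinesin.

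Small transport values depend on scaling. Library totals move the median of all genes by 0.29 and put 65.8% of calls higher, against 50.4%; transport kinesins then have 9 higher and 4 lower calls and a median of 0.20. Upper-quartile factors (59.8% higher) give a transport median of 0.08. Sign changes under library totals were KIF2A 0.12, KIF1B 0.03, KIF5A 0.15 and KIF3A 0.20. Under upper-quartile factors they were KIF2A 0.01, KIF5A 0.04 and KIF3A 0.08. In the authors' RPKM ratio the sign changed for KIF2A (0.12), KIF1B (0.03), KIF3A (0.19) and KIF5A (0.13). No filter turned KIF13A to -0.05 and KIF1C to -0.03. With 1 library left out, KIF13A ran down to -0.04 and -0.01, KIF1C to -0.02 and -0.01, and KIF5A between -0.36 and 0.04. The cause was not tested. Calls lost were KIF12, KIF9, KIF21B, KIF3C and KIF1B (library totals), KIF1B and KIF2A (upper quartile), KIF7 (no filter, DESeq2) and KIF21A (no filter); KIF2A turned to a call higher under library totals. Calls gained were KIF13A, KIF1C and KIF27 (both scalings) and KIF3A (library totals, higher; no filter, lower). With KIF2A among the mitotic kinesins their median was -5.03 and the difference -4.94. Depth limits KIF4B, KIF6, KIF26B, KIF19, KIF25 and KIF2B.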
